A study of Homo sapiens with 12 samples.

Results

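The quinacrine (QC) response of 3 chemosensitive cell lines was read from 6 of the 12 RNA-seq libraries of the study. These were a vehicle library and a QC library each of HeyA8, SKOV3 and OV2008, which the paper names as ovarian cancer lines. HeyA8, SKOV3 and OV2008 are established lines that the labels call sensitive to chemotherapy, and the other 6 libraries come from their resistant counterparts HeyA8-MDR, SKOV3-TR and C13. QC was given at 8 µM for 6 h and buffer served as vehicle in the same line. Each line and treatment is 1 library, so no change within a line has a replicate. The p-values below set the QC effect against its spread between lines, estimated over the sensitive and resistant lines together.

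Quinacrine is an acridine antimalarial. It is a weak base that collects in acidic compartments such as the lysosome, and it also intercalates into DNA. It is known to raise p53 activity, to lower NF-kB activity and to disturb autophagy and nucleolar function in cancer cells. The comparison asks which single genes and which processes moved with QC in all 3 lines, and in which line the movement was largest.

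The 6 libraries held between 18739626 and 30585059 counts on genes. The QC effect was fitted in edgeR over 18720 genes and all 12 libraries, with each line as a block, and levels are given as CPM, counts scaled by TMM to a common library size. A gene is said to have risen or fallen where its unadjusted p is under 0.05 in this fit, the threshold the study names. By that measure 665 genes rose and 569 fell, 6.59% of the genes tested (3.55% and 3.04%). No gene had an adjusted p under 0.05 (the smallest was 0.0622), while DESeq2 with the same block gave 31 such genes, 0.166%. Every unadjusted call is therefore a ranking of genes rather than a call at a controlled error rate. With 3 lines, an exact two-sided sign-flip test of a single gene cannot go below a p of 0.25. In bulk RNA, fewer cells of a type and less RNA per cell cannot be told apart.

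The labels were checked against markers fixed for this purpose. PAX8, the Müllerian lineage factor, had 8571 and 8403 counts in HeyA8 (vehicle and QC) and 8097 and 5156 in SKOV3, but 135 and 267 in OV2008. The 7 Müllerian and ovarian markers summed to 363 and 290 CPM of the library total in HeyA8, to 472 and 356 in SKOV3 and to 14.7 and 18.2 in OV2008. The 5 squamous markers, among them TP63 and the keratins KRT5 and KRT6A, summed to 13566 and 10332 CPM in OV2008 and to at most 0.243 CPM in the other lines. PAX8 made most of the ovarian sum in HeyA8 and SKOV3 (347 and 375 CPM with vehicle, against 7.20 in OV2008), and SOX17 had 0 CPM in OV2008. WT1 was at 3.04 CPM in OV2008, between 4.38 in HeyA8 and 1.39 in SKOV3, and so was MUC16, at 2.24 against 0.162 and 12. By the summed markers OV2008 had a squamous rather than a Müllerian profile. The ovarian name is the paper's, and the origin of the line was not tested. The 4 blood markers summed to at most 0.609 CPM in any of the 6 libraries.

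The HeyA8 QC library lay partway towards HeyA8-MDR for genes of both directions. For 57 genes at least 8-fold higher in HeyA8-MDR than in HeyA8 vehicle, it lay a median of 36.4% of the way from HeyA8 to HeyA8-MDR (quartiles 28.2% to 49.6%), and for 106 genes lower in HeyA8-MDR a median of 53.1% (36.6% to 67.3%). The same measure gave 0% and 8.59% for SKOV3 and 1.09% and 30.6% for OV2008. The quartiles of the OV2008 value of 30.6% were wide, -9.75% to 61.8%, and overlapped those of HeyA8. TMPRSS15 was at 0 CPM in HeyA8 vehicle, 14.2 in HeyA8 QC and 20.2 in HeyA8-MDR vehicle (0, 389 and 389 counts). CPM is given because the HeyA8 QC library held more counts than either vehicle library. ABCB1, the drug efflux pump, was at 4.12, 26.5 and 53.9 CPM in these libraries. MYH16 had 361, 8684 and 10097 counts, which is 317 CPM in HeyA8 QC against 524 in HeyA8-MDR vehicle. PAPPA2 and CDCP1 went the other way, PAPPA2 at 138, 14.3 and 16.9 CPM and CDCP1 at 173, 100 and 0.467. The cause of this position was not tested, so the lists described at length below are also given without HeyA8.

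**Figure D1:**
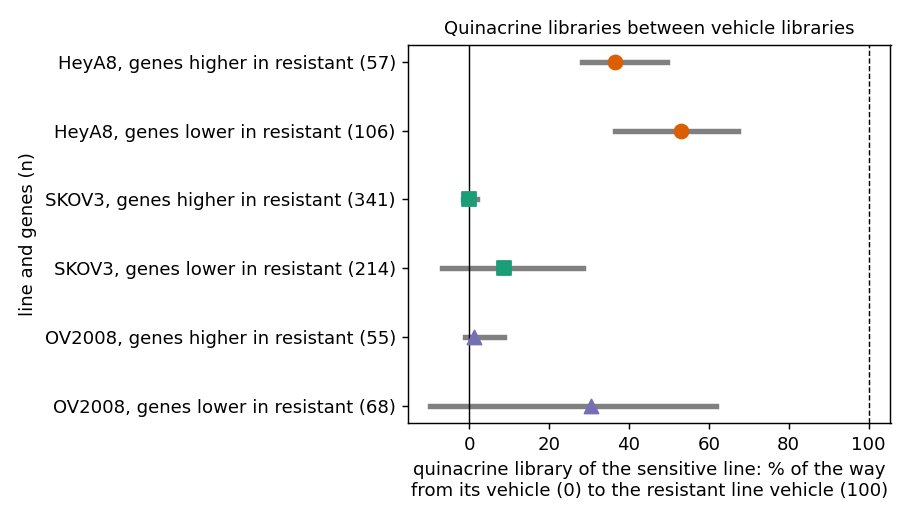
Position of each QC library between the vehicle library of its line (0%) and the vehicle library of the resistant counterpart (100%), for genes at least 8-fold apart between these vehicle libraries; points are medians over genes, grey bars the quartiles, and the number of genes stands in parentheses. Both HeyA8 points, at 36.4% and 53.1%, lie to the right of those of SKOV3 (0% and 8.59%) and OV2008 (1.09% and 30.6%). The OV2008 bar for genes lower in C13 runs from -9.75% to 61.8%.

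The size of the response differed between lines. At least 2-fold higher with QC were 1903 genes in HeyA8 (10.2% of those tested), 776 in SKOV3 (4.15%) and 1846 in OV2008 (9.86%), and at least 2-fold lower were 1301 (6.95%), 771 (4.12%) and 1520 (8.12%). Among genes of at least 1 CPM in the line, 12.7%, 3.65% and 12.8% moved by 2-fold or more. The SD of the log2 ratio was 0.744 in HeyA8, 0.422 in SKOV3 and 0.737 in OV2008. Counted in either direction, 3204, 1547 and 3366 genes moved 2-fold in HeyA8, SKOV3 and OV2008, and 1057, 841 and 1930 when genes 2-fold apart between HeyA8-MDR and HeyA8 vehicle were left out. With 1 library per line and treatment these counts have no test.

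The lines also moved in different genes. Over the 11824 genes with at least 1 CPM in a library of every line, Pearson's r between the log2 ratios was 0.26 for HeyA8 and OV2008 (Spearman's rho 0.25), 0.0077 for HeyA8 and SKOV3 (rho 0.04) and 0.03 for SKOV3 and OV2008 (rho 0.07). These correlations run over genes, which are not independent replicates. Of 232 genes that moved at least 2-fold in both HeyA8 and OV2008, 193 went the same way, against 25 of 66 for HeyA8 and SKOV3 and 25 of 55 for SKOV3 and OV2008. Transcript length moved with the ratios as well. Over 5 equal bins of transcript length, the median log2 ratio went from the shortest to the longest bin from 0.14 to -0.15 in HeyA8, from 0.05 to -0.01 in SKOV3 and from -0.08 to 0.13 in OV2008, and its part in the results was not tested beyond the GC and length correction in the closing section.

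Some genes moved the same way in all 3 lines. Without any size limit, 2759 genes were higher with QC in every line (14.7%) and 2461 lower (13.1%). Signs unrelated between lines would also give such genes, so these 2 shares alone are not read as a common response. At least 1.5-fold in each line with an unadjusted p under 0.05 were 124 genes higher (0.662%) and 69 lower (0.369%). With at least 1 CPM in a library of every line, 36 genes higher (0.304%) and 21 lower (0.178%) remained, and the following describes these.

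In a fit without HeyA8, 27 of the 36 and 16 of the 21 had an unadjusted p under 0.05, where 2.08% of 19890 genes were higher and 1.99% lower at that p. The genes were chosen on the same SKOV3 and OV2008 values, so these counts are a description and nothing is read from them. For 20 of the 36 and 11 of the 21, HeyA8-MDR vehicle already differed from HeyA8 vehicle at least 2-fold in the same direction. DESeq2 gave 9 of the 36 and 3 of the 21 an adjusted p under 0.05. The largest ratio among the 36 was in HeyA8 for 17 genes, in OV2008 for 17 and in SKOV3 for 2, and among the 21 it was in HeyA8 for 9, in OV2008 for 9 and in SKOV3 for 3.

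The 36 higher genes held 12 long non-coding RNAs (33.3%), where 5.67% of the 11824 genes are of this class, and the 21 lower genes held 1 (4.76%). Apart from PPP1R14B-AS1, none of the 12 was above 7.8 CPM in any sensitive library. The 5.67% was not matched for level, and low genes give more variable ratios. Several of the 12 are antisense to or divergent from a coding gene, such as PPP1R14B-AS1, SOCS2-AS1, INTS6-AS1, KMT2E-AS1 and SAP30-DT. The strand setting of the counting is not given in the sources used here, so reads of an antisense RNA and its partner may not be separable. LINC02577 was at 0.975 and 2.38 CPM in HeyA8 (vehicle and QC), 0.376 and 1.09 in SKOV3 and 0.168 and 2.51 in OV2008, low in every library and highest in ratio in OV2008 (log2 ratio 3.36).

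The gene with the smallest p among the 57 was CCDC80, a secreted matrix-associated protein, which fell. CCDC80 was at 1487 CPM with vehicle and 561 with QC in HeyA8, at 32.5 and 14 in SKOV3, and at 24.0 and 10.4 in OV2008. Its levels differed widely between lines, but the ratio was nearly the same in each, 2.65-fold, 2.32-fold and 2.31-fold lower. The fitted log2 change was -1.28 ± 0.174 (SE; edgeR adjusted p = 0.0622; DESeq2 adjusted p = 3.55e-11), and without HeyA8 it was -1.22 (edgeR adjusted p = 0.362). HeyA8-MDR vehicle lay at a log2 ratio of -1.82 to HeyA8 vehicle. With QC, CCDC80 had log2 ratios of -0.27, -0.07 and 0.04 in HeyA8-MDR, SKOV3-TR and C13, a fitted difference of 1.18 ± 0.242 (SE) from the sensitive lines on the log2 scale (edgeR adjusted p = 1), on which CCDC80 was in part chosen.

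IL18, a cytokine of the interleukin-1 family, was at 22.8 and 2.92 CPM in HeyA8, 27.0 and 12.9 in SKOV3 and 94.2 and 47.3 in OV2008. The HeyA8 ratio stood out, and HeyA8-MDR vehicle lay at a log2 ratio of -3.80 to HeyA8 vehicle. The other lines moved about 2-fold, and without HeyA8 the fitted change was -1.03 (edgeR adjusted p = 0.649). SLPI, a secreted protease inhibitor, was at 1.46 and 0.877, 125 and 80.6, and 23.3 and 13 CPM. NOD1, an intracellular sensor of bacterial peptidoglycan, had log2 ratios of -1.27, -0.71 and -1.14, and BTN3A3, a butyrophilin, of -1.21, -0.61 and -1.33 (HeyA8, SKOV3 and OV2008, the order kept from here on). HeyA8-MDR vehicle lay at log2 ratios of -0.85 and -1.26 to HeyA8 vehicle for NOD1 and BTN3A3.

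IGFBP3, a binding protein of insulin-like growth factors, was at 101 and 53.2, 546 and 291, and 26.5 and 16.5 CPM. Its ratios were close in the 3 lines, at -0.92, -0.91 and -0.68 on the log2 scale, and HeyA8-MDR vehicle differed from HeyA8 vehicle by only -0.21. ATP7A, the copper exporter, was at 16.1 and 9.03, 21 and 14, and 25.5 and 12.2 CPM, and every QC library lay below every vehicle library. FAM111B, a protease-like protein tied to replication, was at -1.59, -1.28 and -0.68, and GDAP1, a mitochondrial outer membrane protein, at -0.67, -1.06 and -1.20. HeyA8-MDR vehicle lay at log2 ratios of -2.50 and -1.56 to HeyA8 vehicle for FAM111B and GDAP1. TNS1, a focal adhesion protein, was named as the gene whose fall in SKOV3 went furthest beyond the other lines, with OAS2, at -1.29, -1.84 and -0.78.

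**Figure D2:**
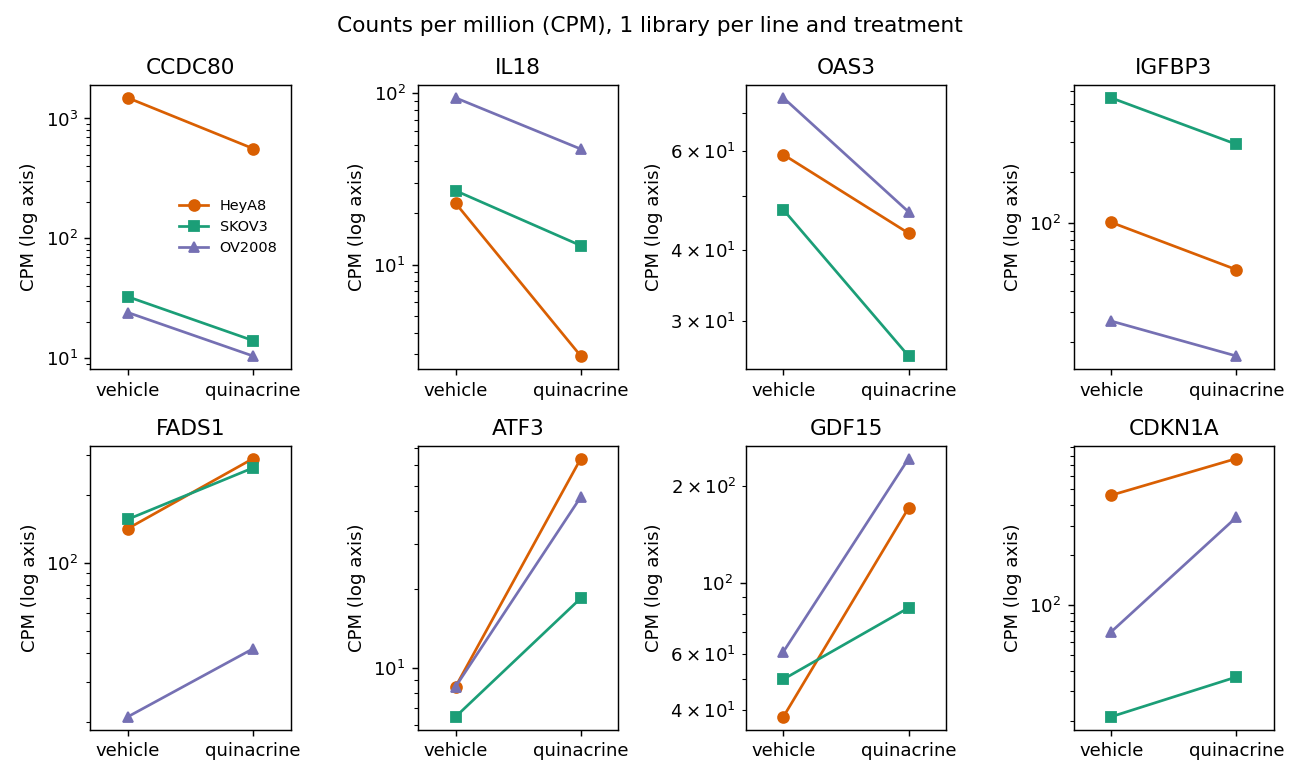
CPM of 8 genes with vehicle and with QC on log axes, 1 library per point, lines joining the libraries of HeyA8 (circles), SKOV3 (squares) and OV2008 (triangles). CCDC80, IL18, OAS3 and IGFBP3 slope down and FADS1, ATF3, GDF15 and CDKN1A slope up in all 3 lines.

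Histone genes outside and inside the replication-dependent class were among the higher genes. H1-2, a linker histone of the replication-dependent class, was at 10.4 and 36.7, 3.26 and 4.99, and 7.28 and 23.0 CPM, and H2AJ, a variant core histone with a polyadenylated message, at 33.8 and 63.2, 20.6 and 32.6, and 35.7 and 69.9.

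ATF3 and GDF15 rose in all lines. ATF3, a stress-induced transcription factor, was at 8.46 and 63.6 CPM, 6.48 and 18.5, and 8.46 and 45.3. The vehicle levels were nearly equal in the 3 lines and every QC library lay above every vehicle library. The fitted log2 change of ATF3 was 2.29 ± 0.393 (SE; edgeR adjusted p = 0.19). HeyA8-MDR vehicle was at a log2 ratio of 2.12 to HeyA8 vehicle, and without HeyA8 the change was 1.97 (edgeR adjusted p = 0.649). GDF15, a secreted stress cytokine and p53 target, was at 38.1 and 171, 49.9 and 83.4, and 60.8 and 244 CPM, so its QC libraries also lay above all vehicle libraries. For GDF15 HeyA8-MDR vehicle was at a log2 ratio of 1.31 to HeyA8 vehicle.

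FADS1, a fatty acid desaturase, was at 142 and 289, 156 and 263, and 21 and 41.9 CPM. FADS1 rose by similar amounts in each line, 2.03-fold, 1.69-fold and 1.99-fold. Its fitted log2 change was 0.92 ± 0.201 (SE; edgeR adjusted p = 0.393; DESeq2 adjusted p = 0.0252). Other genes named by p were HCFC1R1, a regulator of HCFC1, at log2 ratios of 1.72, 0.90 and 0.65, PPP1R3F, a glycogen-targeting phosphatase subunit, at 1.61, 1.24 and 2.02, and TMEM158 at 1.44, 0.59 and 1.62. On the log2 scale HeyA8-MDR vehicle lay 1.59, 1.73 and 1.89 above HeyA8 vehicle for HCFC1R1, PPP1R3F and TMEM158. CHD5, a chromatin remodeller, had the HeyA8 ratio furthest beyond the other lines, 4.00 against 0.68 and 1.02, from 0.0886 to 2.7 CPM. HeyA8-MDR vehicle lay 3.24 above HeyA8 vehicle for CHD5, and without HeyA8 it no longer passed.

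**Figure D3:**
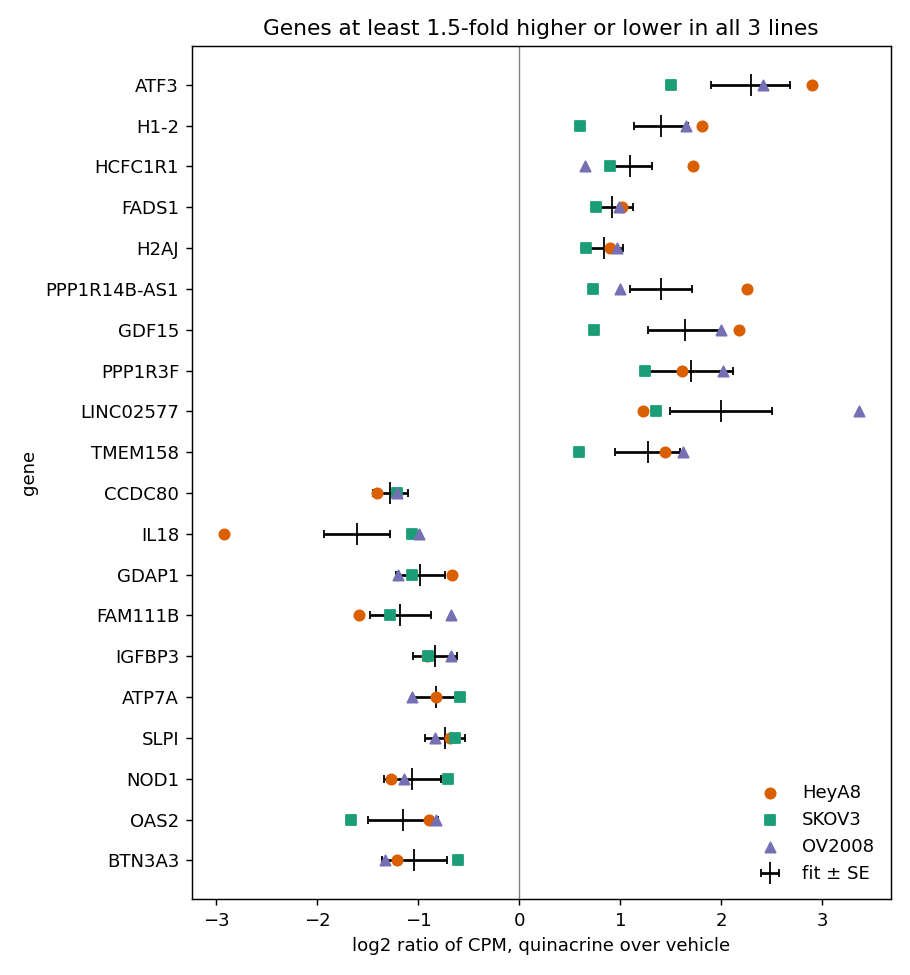
Log2 ratio of CPM with QC to CPM with vehicle in HeyA8 (circles), SKOV3 (squares) and OV2008 (triangles) for 10 higher and 10 lower genes named by p, with the edgeR estimate ± SE in black. All points of the upper 10 genes lie above 0.5 and all points of the lower 10 below -0.5, and HeyA8 lies farthest out for IL18 (-2.93) and OV2008 for LINC02577 (3.36).

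The processes were described with 26 gene lists, each by its members tested, its members that rose or fell and its median log2 ratio in each line. Over all genes tested 3.55% rose and 3.04% fell. The lists whose median was above 0 in all 3 lines and of which at least 10% rose were the p53 targets, the replication-dependent histones, cholesterol synthesis, the vacuolar proton pump, autophagy and the immediate early genes. Those with a median below 0 in all 3 lines and at least 10% falling were DNA replication and the interferon-stimulated genes. The SKOV3 medians were small for the histones (0.04), the immediate early genes (0.05), the p53 targets (0.07) and autophagy (0.07). Over genes with at least 10 counts in every library, these SKOV3 medians were -0.40, 0.07, 0.0051 and 0.05. In SKOV3 these lists are therefore not read as having risen. The limits for the lists were set after the values were seen, and no list was tested as a set.

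**Figure D4:**
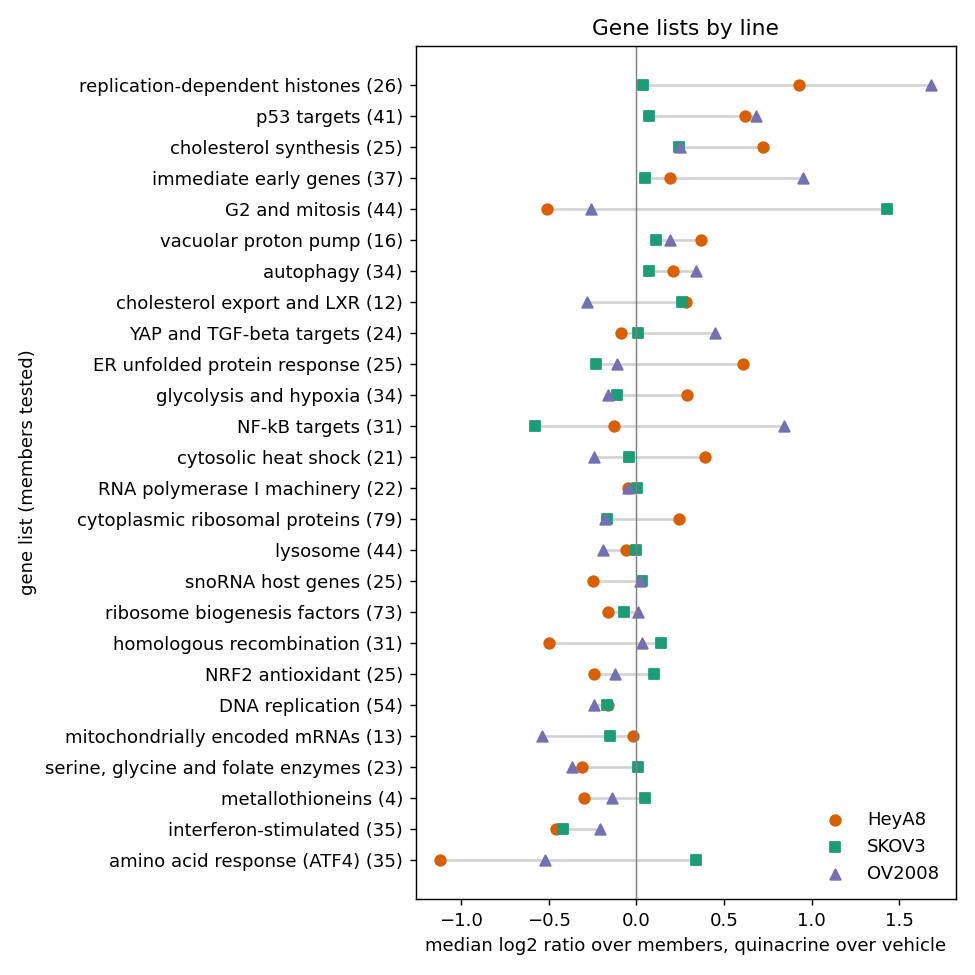
Median log2 ratio of QC to vehicle over the tested members of each of the 26 gene lists (member numbers in parentheses) in HeyA8 (circles), SKOV3 (squares) and OV2008 (triangles), ordered by the median of the line means. Replication-dependent histones reach 1.68 in OV2008, G2 and mitosis genes 1.43 in SKOV3, and the amino acid response list lies at -1.12 in HeyA8.

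p53 is a transcription factor that stress stabilises and that drives genes of cell cycle arrest, repair and death. Of 41 p53 targets tested, 10 rose (24.4%) and 0 fell, and 21 were higher in all 3 lines (51.2%, against 14.7% of all genes). The median log2 ratio was 0.62 in HeyA8, 0.07 in SKOV3 and 0.68 in OV2008. The change largest in size, up or down, was in OV2008 for 25 of the 41, in HeyA8 for 14 and in SKOV3 for 2. Without HeyA8 the median over the list was 0.29 and 7 members rose, without SKOV3 18 rose and without OV2008 6 did.

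CDKN1A, the cyclin-dependent kinase inhibitor p21, was at 461 and 768, 21.1 and 36.7, and 68.8 and 339 CPM. It rose in every line, by 4.92-fold in OV2008 and by 1.66-fold and 1.74-fold in HeyA8 and SKOV3, with a fitted log2 change of 1.27 ± 0.371 (SE; edgeR adjusted p = 0.621). TIGAR, a regulator of glycolysis, was at 27.0 and 68.8, 0.627 and 1.27, and 16.7 and 35.6 CPM. For TIGAR HeyA8-MDR vehicle was at a log2 ratio of 1.78 to HeyA8 vehicle. PMAIP1, the pro-death protein NOXA, was at 28.3 and 93.1, 83.5 and 87.7, and 8.74 and 35.3 CPM, higher by over 1.5-fold in HeyA8 and OV2008 but not in SKOV3. MDM2, the ligase that degrades p53, had ratios of 0.94, -0.06 and 1.28 and did not pass.

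Replication-dependent histone genes are made in S phase and their messages mostly lack a poly(A) tail. The labels give polyadenylated RNA as the material, so the values count the polyadenylated share of these messages, and near-identical copies within the family may share reads. Only 26 of the 64 listed genes passed the filter, and a gene high with QC alone could pass by that. Of the 26, 9 rose (34.6%) and 0 fell, with medians of 0.93, 0.04 and 1.68. The change largest in size, up or down, was in OV2008 for 16. H2AC11 was at 4.21 and 8.33, 0.92 and 1.68, and 0.784 and 10.3 CPM, and H2BC11 at 3.24 and 8.55, 0.544 and 0.727, and 1.62 and 10.2. Both were highest in ratio in OV2008, at 3.58 and 2.59, where their vehicle levels were low. Without HeyA8 the median was 0.86 and 7 rose. Without OV2008 the median was 0.46 and 2 rose, and without SKOV3 15 of 27 did.

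The promoters of 4 genes are shown because each holds a short motif known for its class. The sequences are RefSeq promoters of build GRCh38.p14, read 5′ to 3′ on the gene's strand over at most 50 bases to each side of the match and not past the gene start, with the motif in capitals. The octamer ATTTGCAT, known from H2B promoters, lay within 250 bases before the start, on either strand, in 12 of the 26 histone genes (46.2%) and in 1.66% of 27305 promoters. It was in 8 of the 11 H2BC genes (72.7%). The interferon-stimulated response element was searched as GAAANNGAA and lay in 18 of the 27 interferon-stimulated genes with a promoter in the table (66.7%, against 7.06%). The E2F motif TTTNNCGC lay in 15 of 47 replication genes (31.9%, against 5.93%), and the sterol motif TCACNCCAC in 1 of 18 cholesterol genes (5.56%, against 0.875%). A match describes the sequence and is not a measured site. H2AC11 and H2BC11 share a promoter region on opposite strands, and the octamer of the H2BC11 window, which lies at chr6:27132796-27132892 on the minus strand, is the same one on the opposite strand in H2AC11. The windows of OAS3 (chr12:112938412-112938473, plus), BST2 (chr19:17405696-17405804, minus) and MCM6 (chr2:135876472-135876579, minus) follow.
H2BC11: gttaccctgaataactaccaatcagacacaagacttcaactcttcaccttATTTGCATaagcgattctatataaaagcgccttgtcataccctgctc
OAS3: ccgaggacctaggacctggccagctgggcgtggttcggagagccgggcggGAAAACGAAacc
BST2: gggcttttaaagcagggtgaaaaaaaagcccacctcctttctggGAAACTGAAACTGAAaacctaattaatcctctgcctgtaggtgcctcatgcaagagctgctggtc
MCM6: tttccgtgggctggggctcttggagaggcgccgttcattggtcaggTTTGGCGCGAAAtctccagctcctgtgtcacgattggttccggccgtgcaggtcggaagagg

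DNA replication genes, which load and fire origins and copy the genome, were slightly lower in each line. Of 54 tested, 7 fell (13%) and 0 rose, 20 were lower in all 3 lines (37%, against 13.1%), and the medians were -0.16, -0.17 and -0.24. MCM6, a subunit of the replicative helicase whose E2F motif is printed above, was at 41.8 and 26.1, 53 and 26.3, and 154 and 111 CPM, a fitted log2 change of -0.72 ± 0.216 (SE; edgeR adjusted p = 0.621). CDT1, which loads that helicase, had nearly equal ratios of -0.49, -0.49 and -0.53, and CLSPN, a checkpoint adaptor, of -0.83, -0.47 and -0.51. Without HeyA8 4 members fell and 1 rose.

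Cholesterol synthesis is switched on by SREBP2 when the endoplasmic reticulum senses little sterol. Of 25 genes tested, 10 rose (40%) and 0 fell, 14 were higher in all 3 lines (56.0%), and the medians were 0.72, 0.24 and 0.25. HeyA8 had the change largest in size, up or down, for 17 of the 25, SKOV3 for 5 and OV2008 for 3. IDI1, an isomerase of the isoprenoid steps, was at 31.2 and 68.8, 16.3 and 22.3, and 24.9 and 38.6 CPM, and SC5D, a late sterol desaturase, at 26.1 and 46.8, 184 and 297, and 37.4 and 55.6. HMGCS1, an early synthase of the pathway, was higher in HeyA8 and OV2008 (1.43 and 0.88) and not in SKOV3 (-0.14). INSIG1, the sterol-regulated anchor of SREBP, was highest in ratio in SKOV3 (0.72, 1.15 and 0.24). Without HeyA8 the median was 0.17 and 5 rose, SC5D, IDI1, INSIG1 and STARD4, a sterol carrier, among them.

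The lysosomal side was mixed. NPC1 and NPC2, which hand cholesterol out of the lysosome, rose, NPC1 from 229 to 270, 129 to 205 and 68.4 to 106 CPM. The sterol exporter ABCG1 went in opposite directions, from 0.443 to 4.20 CPM in HeyA8 and 5.27 to 32.8 in SKOV3, but from 23.2 to 3.66 in OV2008. Of the 16 subunits of the vacuolar proton pump, which acidifies the lysosome, 3 rose (18.8%) and 9 were higher in all 3 lines, with medians of 0.37, 0.11 and 0.19, and without HeyA8 2 rose with a median of 0.14. ATP6V1D was at 91.1 and 190, 27.9 and 37.1, and 27.3 and 54.5 CPM. Of 44 lysosomal enzymes and membrane proteins 0 rose and 1 fell, SGSH, with medians under 0.2 in size in every line. Of 34 autophagy genes 8 rose (23.5%) and 0 fell, with medians of 0.21, 0.07 and 0.34. Without HeyA8 4 autophagy genes rose, and without OV2008 1 did. ATG4A, a protease that processes LC3-like proteins, was at 11.7 and 25.7, 1.72 and 2.32, and 19 and 41.1 CPM, and OPTN, a selective autophagy receptor, at 192 and 249, 191 and 240, and 27.9 and 48.1.

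Interferon-stimulated genes encode antiviral effectors. Of 35 tested, 11 fell (31.4%) and 0 rose, 15 were lower in all 3 lines (42.9%), and the medians were -0.46, -0.42 and -0.21. OAS3, an enzyme that makes the activator of RNase L, was at 59.1 and 42.9, 47.2 and 26, and 74.5 and 46.8 CPM. Every OAS3 QC library lay below every vehicle library, with a fitted log2 change of -0.66 ± 0.172 (SE; edgeR adjusted p = 0.596). OAS2 was at 4.17 and 2.19, 15.1 and 4.68, and 18 and 10.1 CPM, furthest down in SKOV3. BST2, the virus tether tetherin, was at 53.9 and 32.2 CPM in SKOV3 and 113 and 54.1 in OV2008, with at most 0.0886 CPM in HeyA8. MX1, a dynamin-like antiviral GTPase, was at 1.46 and 0.914, 19.1 and 12.2, and 9.91 and 4.50 CPM. Without HeyA8 10 of 36 fell and 1 rose, and the median was -0.46. Leaving out genes 2-fold apart between HeyA8-MDR and HeyA8 vehicle kept 19 members, of which 5 fell. Their medians were smaller in HeyA8 and SKOV3, at -0.17, -0.19 and -0.39. Not all members moved so: OASL was at 0.784 and 6.97 CPM in OV2008, 8 members were at least 2-fold lower there and 3 at least 2-fold higher.

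**Figure D5:**
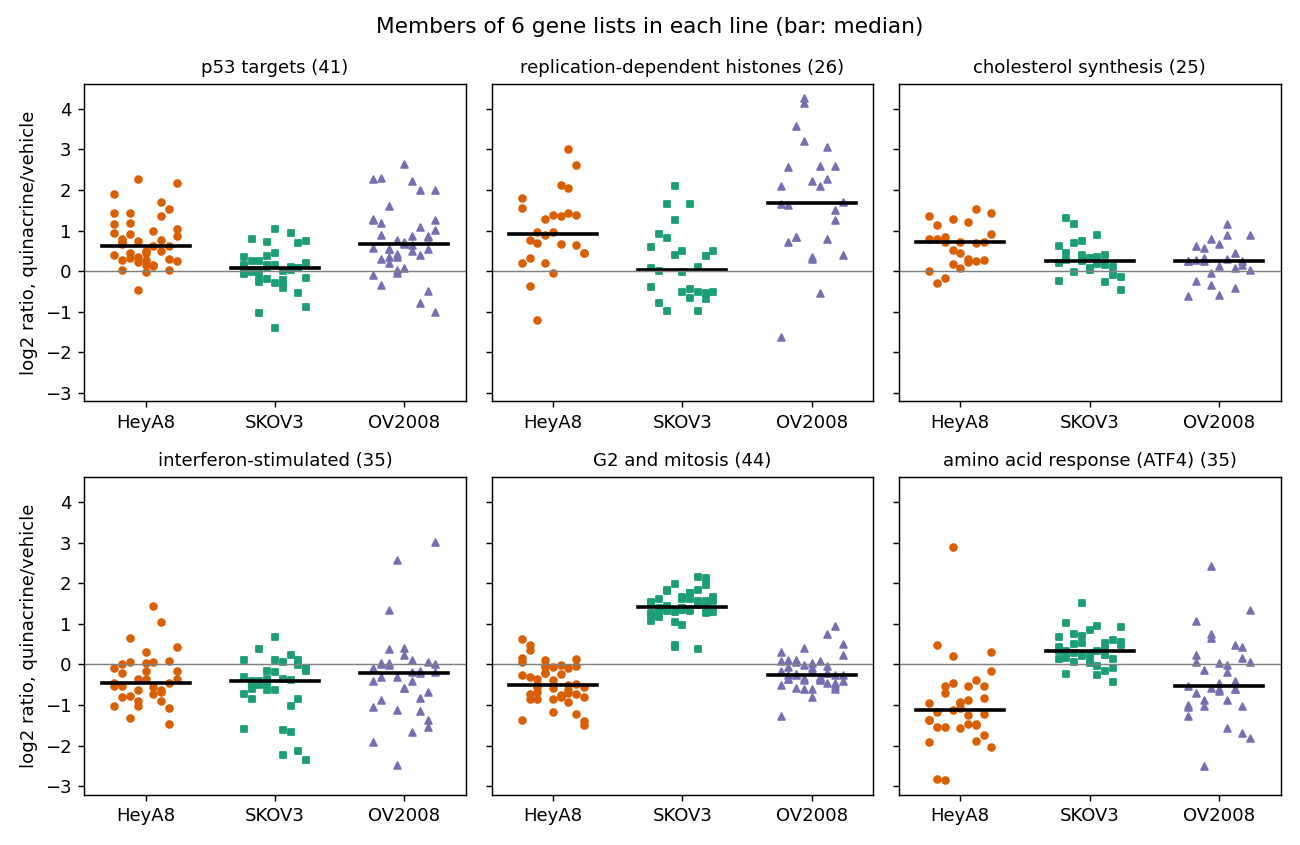
Log2 ratio of QC to vehicle for each tested member of 6 gene lists in HeyA8, SKOV3 and OV2008, 1 point a gene, with the median as a black bar. Each of the 44 G2 and mitosis genes lies above 0 in SKOV3 (median 1.43), while the medians in HeyA8 and OV2008 are -0.51 and -0.26.

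Some processes moved in opposite directions between lines. All 44 G2 and mitosis genes were higher with QC in SKOV3, 40 of them at least 2-fold, while 37 were lower in HeyA8 and 32 in OV2008. HMMR was at 117 and 81.7 CPM in HeyA8, 15.9 and 71.7 in SKOV3, and 79.8 and 78.2 in OV2008, and CCNB1, the mitotic cyclin B1, at 254 and 174, 48.4 and 142, and 459 and 344. The SKOV3 vehicle library was the lowest of the 6 for both genes, and the QC library came closer to the other lines. Leaving out genes 2-fold apart between HeyA8-MDR and HeyA8 vehicle kept 11 of the 44, with medians of 0.006 in HeyA8, 1.26 in SKOV3 and -0.29 in OV2008. In the fit over the 3 lines 1 member rose, CKS1B, while 8 rose without HeyA8, 3 rose without OV2008 and 4 fell without SKOV3. SKOV3 has 1 vehicle library, so whether its vehicle or its QC library is the unusual one was not tested.

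The amino acid response list, genes that the transcription factor ATF4 drives when amino acids are short, was lower in HeyA8 and OV2008 and higher in SKOV3. Its medians were -1.12, 0.34 and -0.52, with 31 of 35 lower in HeyA8 and 29 of 35 higher in SKOV3. 9 members fell and 3 rose, ATF3, DDIT3 and PPP1R15A, which are stress genes rather than amino acid enzymes or transporters. SLC7A5, a large neutral amino acid transporter, was at 686 and 94.7 CPM, 1611 and 2696, and 5597 and 989. PHGDH, the first enzyme of serine synthesis, was at 317 and 95.6, 209 and 195, and 121 and 37.7 CPM, and PSAT1, the next enzyme, at 578 and 152, 502 and 552, and 193 and 80.9. Both were clearly lower in HeyA8 and OV2008 and within 1.5-fold in SKOV3. DDIT3, the stress factor CHOP, was higher in each line (0.48, 1.03 and 1.08). Without HeyA8 3 members rose and 1 fell and the median was -0.11, while without SKOV3 19 fell and without OV2008 4 did. Of the 23 serine, glycine and folate enzymes 4 fell (17.4%), PHGDH, PSAT1, MTR and MAT2A, and 0 rose. Without HeyA8 1 of the 23 fell, and without SKOV3 8 did.

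The median of the 25 genes of the unfolded protein response of the endoplasmic reticulum was 0.61 in HeyA8, -0.23 in SKOV3 and -0.11 in OV2008, and no member passed in the fit. HSPA5, the chaperone BiP, was at 1156 and 2012, 895 and 669, and 855 and 506 CPM. Without HeyA8 4 members fell and 0 rose. Over the 10 of the 25 that were not 2-fold apart between HeyA8-MDR and HeyA8 vehicle, the medians were 0.10, 0.09 and -0.11. The 21 cytosolic heat shock genes had medians of 0.39, -0.04 and -0.24, with 1 that fell, CHORDC1, and the 79 cytoplasmic ribosomal proteins had 0.24, -0.17 and -0.18, with none that passed.

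OV2008 had the highest medians of the signalling lists. Of the 37 immediate early genes, which growth and stress signals induce within minutes, 9 rose (24.3%) and 1 fell, with medians of 0.19, 0.05 and 0.95. The change largest in size, up or down, was in OV2008 for 27. Without OV2008 1 rose and 2 fell, with a median of 0.13, and without HeyA8 9 rose and 0 fell, with a median of 0.42. FOS was at 6.25 and 6.84, 1.67 and 2.23, and 5.15 and 24.1 CPM, a rise carried by OV2008. EGR2 was higher in each line (0.89, 1.08 and 2.09), and MYC, the member that fell, was lower in each (-0.78, -0.39 and -0.12). Among 31 NF-kB targets 23 were higher in OV2008 and 29 were lower in SKOV3, with medians of -0.13, -0.58 and 0.84. CXCL8, the neutrophil chemokine interleukin-8, was at 513 and 574, 13.4 and 3.36, and 6.39 and 27.7 CPM. In the fit 3 NF-kB targets fell, CXCL1, TNIP1 and NFKBIZ, and 0 rose, while 2 fell and 2 rose without HeyA8, 5 rose without SKOV3 and 6 fell without OV2008, over the 32 or 33 then tested. CXCL1 had 0 counts in OV2008. CXCL1 was at 475 and 297 CPM in HeyA8 and 28.3 and 10.5 in SKOV3.

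Of 73 ribosome biogenesis factors 1 fell, GNL3L, and 0 rose, with medians of -0.16, -0.07 and 0.0093, and 26 were lower in all 3 lines (35.6%, against 13.1% of all genes). GNL3, which encodes nucleostemin, was at 112 and 86.3, 85.2 and 74.1, and 145 and 120 CPM and did not pass. Of the 22 genes of the RNA polymerase I machinery 1 fell, POLR1E, at -0.42, -0.57 and -0.35, and 5 were lower in all 3 lines (22.7%). Of 31 homologous recombination genes 1 fell, FANCA, and 1 rose, RAD51C. Of 25 snoRNA host genes 1 fell, SNHG4, from 32.9 to 11.9, 6.90 to 5.40 and 46.2 to 11.7 CPM, and 7 were lower in all 3 lines (28.0%). The 13 mitochondrially encoded mRNAs had medians of -0.02, -0.15 and -0.54, and neither they nor the 34 glycolysis and hypoxia genes nor the 4 metallothioneins tested held a member that passed. Of 25 NRF2 antioxidant genes 2 fell, AKR1C2 and GCLC. Of 24 YAP and TGF-beta targets 3 rose (12.5%, against 3.55%), PMEPA1, NUAK2 and BHLHE40, and 1 fell, ID1. The medians of these targets were -0.09, 0.0099 and 0.45. PMEPA1 had log2 ratios of 4.31, 0.08 and 1.57, and HeyA8-MDR vehicle lay 4.65 above HeyA8 vehicle. ID1 was at -1.19, -0.0074 and -1.23, so neither gene moved in SKOV3. Without HeyA8 5 of the 24 targets rose, and without OV2008 1 did.

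Against the resistant lines, 217 genes had an unadjusted p under 0.05 for a difference in QC effect (1.16%), and the smallest adjusted p was 1 (edgeR). Of the 36 genes higher in all 3 sensitive lines 6 were among them, and of the 21 lower genes 9 were. The 57 genes were chosen on the sensitive side of this difference, so these counts and the values below are a description and nothing is read from them. The 9 included CCDC80, IGFBP3, SLPI, IL18 and FAM111B. IGFBP3 had log2 ratios of -0.38, 0.77 and -0.01 in HeyA8-MDR, SKOV3-TR and C13 and differed by 0.97 ± 0.308 (SE). SLPI had 0.13, -0.01 and 0.19 there and differed by 0.85 ± 0.282.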

How the data were processed

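RNA was sequenced from HeyA8, SKOV3 and OV2008 and their resistant counterparts, with 1 library per line and treatment. The authors deposited raw read counts per gene, not normalized, under versioned Ensembl IDs. The paper's methods name TopHat, hg19 and HTSeq, while the submitters' processing notes name STAR 2.7.3a, HTSeq 0.6.1p1 and GRCh38 p13; the annotation and strand setting are not given in the sources used here. Symbols were paired for 58620 of 60669 IDs; the other 2049 hold 0.132% of counts.

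Counts were fitted with edgeR 4.0.16 in R 4.3.3 (TMM, filterByExpr, quasi-likelihood F test, Benjamini-Hochberg adjustment; dispersion 0.0575, 4 residual degrees of freedom). Terms were the line (block) and the QC effect in sensitive and in resistant lines. Line ratios are log2 CPM ratios with a prior count of 2. DESeq2 1.42.0 was an alternative. The line pairs the libraries: the vehicle and QC libraries of HeyA8, SKOV3 and OV2008 deviated together from their group means (r over genes 0.893, 0.912 and 0.9). Scripts were tested on simulated counts.

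Named genes are the 12 with the smallest p in each direction among genes at least 1.5-fold in every line, with p under 0.05 and 1 CPM in a library of each line; the 2 per line furthest beyond the other lines; and the 2 members of each list with the smallest p and up to 2 more that meet the first rule. Other members were picked after their values were seen, as examples. Members, lists and tests were chosen with earlier results of these data known. Some genes that the rule names are not reported here.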

Additional observations from a re-analysis of the deposited data

How the results depend on the processing

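No gene named by the rule changed the sign of its fitted change under any alternative run. Of the 25 example members, none of which was past the adjusted threshold, 6 did when 1 line was left out. Their ranges were -0.15 to 2.86 (ABCG1, lowest without SKOV3), -0.29 to 1.05 (HMMR) and -0.50 to 0.56 (CCNB1), both lowest without SKOV3 and highest without HeyA8, -0.59 to 0.19 (HSPA5, lowest without HeyA8, 0.0077 without SKOV3), and -0.81 to 1.07 (CXCL8) and -0.18 to 1.85 (OASL), both lowest without OV2008. Without the block CCNB1 was at -0.21 (DESeq2 -0.22) and HSPA5 at 0.13 (0.12). List medians that did were, without HeyA8, cholesterol export (-0.05), the unfolded protein response (-0.18), heat shock (-0.09), homologous recombination (0.05) and glycolysis (-0.11); without the HeyA8-MDR genes, cholesterol export (-0.01) and the unfolded protein response (-0.0067); without SKOV3, G2 and mitosis (-0.35); without OV2008, the NF-kB targets (-0.37); without the block, G2 and mitosis (-0.03, DESeq2 -0.05) and heat shock (-0.03, DESeq2 -0.05); with the GC and length correction, heat shock (-0.02); the cytoplasmic ribosomal proteins (-0.03) under 4 settings, never past 0.03; and the metallothioneins, below. Without the replicate block, which uses the pairing by line, 30 genes had an unadjusted p under 0.05 (67 in DESeq2) against 1234, 14 (28) and 6 (7) of the genes were higher and lower in all 3 lines against 124 and 69, and 6 (8) differed between resistant and sensitive lines against 217. The adjusted count of 0 became 31 in DESeq2 with the block and 1 without it, 195 with no expression filter and 1 without genes 2-fold apart between HeyA8-MDR and HeyA8 vehicle; for the difference it became 1 in DESeq2 with the block and 5 with no filter. Leaving out 1 line gave 808 to 2012 unadjusted calls, 2 to 18 adjusted calls and 254 to 466 calls of the difference (419 without SKOV3), and over the 2 lines left 150 to 633 higher genes (192 without OV2008) and 133 to 506 lower ones; 808 and 2 are without HeyA8, 2012, 18, 633 and 506 without SKOV3, and 813 and 158 without OV2008. With no filter 1918 genes passed unadjusted and 501 for the difference; requiring 2-fold as well left 485. Requiring 10 counts in every library gave 28 higher, 21 lower and 120 for the difference; the 6 sensitive libraries alone gave 77 higher; leaving out the HeyA8-MDR genes gave 43, 40 and 105; 2-fold in every line gave 48 and 17, and no p gave 218 and 123. The limit of 1 CPM, which gave 36 and 21, was chosen after seeing the data. Genes moved 2-fold in HeyA8, SKOV3 and OV2008 (3204, 1547 and 3366) became 7083, 4385 and 7807 with no filter, 882, 225 and 913 with 10 counts and 1057, 841 and 1930 without the HeyA8-MDR genes. Leaving out 1 line, the medians of DNA replication and RNA polymerase I ran from -0.20 to -0.11 and from -0.06 to -0.0011; the 4 metallothioneins (-0.26) lay at -0.75 in DESeq2, 0.05 with 10 counts, -0.48 with a prior count of 0.5 and -0.07 without the HeyA8-MDR genes. Correcting the ratios for GC content and transcript length gave 115 higher and 67 lower genes in all 3 lines. The causes were not tested. Low genes such as LINC02577 rest on few reads in some libraries.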
